A study of Mus musculus with 4 samples.

Results

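The cells described here are classical monocytes of the mouse liver, the Ly6c2 and Ccr2 expressing monocytes that enter tissue from blood. They were chosen by their transcript counts, cell by cell. A cell had to hold at least 1 unique molecular identifier (UMI, standing for 1 captured transcript) of Ccr2, at least 1 of Ly6c2, at least 1 of Chil3, F13a1 or Vcan, and at least 2 of Lyz2. It could hold no Gpnmb, Cd3e, Cd79a, Siglech or Cd209a and at most 1 UMI of Clec4f. Of 32150 kept cells in 3 libraries, 572 met the rule: 63 in HFD_EXE, 465 in HFD_sed and 44 in S.

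The libraries came from non-parenchymal liver cells of C57BL/6J mice aged 30 weeks, sequenced in droplets with 10x Genomics 3′ chemistry. The series concerns high fat diet (HFD) and physical exercise. The labels leave these names unexplained: HFD_EXE is taken as HFD with exercise, HFD_sed as HFD without it, and the title of S mentions neither. The labels give no sex, no length of diet or exercise and no number of animals per library. A group named E was not analysed here. Each group was 1 library, so no difference below was tested between animals, and diet, exercise and library cannot be told apart. The kept cells held medians of 4975 UMIs in HFD_EXE, 4272 in HFD_sed and 6306 in S, and the members medians of 10575, 8618 and 9815. Member UMIs summed to 683149, 4224725 and 443262 in the same order. Between 30 and 43 barcodes recurred in a pair of these libraries, and at most 4 of those belonged to members.

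Classical monocytes leave the bone marrow and use the chemokine receptor CCR2 to follow CCL2 into tissue. In an inflamed or fatty liver they give rise to macrophages. Some mature in blood into nonclassical monocytes, which patrol the vessel wall and express Ace and Treml4. Interferons, microbial ligands and low oxygen each induce a known set of genes in these cells, which is why such sets were measured side by side.

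The rule's own genes are given as description, since they chose the cells. Counts were summed over the members of a library and scaled to their total, as CPM. Ccr2 stood at 937 CPM in HFD_EXE, 1268 CPM in HFD_sed and 1913 CPM in S. Ly6c2 stood at 1080.3, 782 and 907 CPM, Chil3, a chitinase-like protein, at 1059.8, 1286 and 2852 CPM, and F13a1, coagulation factor XIII subunit A, at 495, 651 and 1051 CPM. F13a1 was found in 92.1%, 90.5% and 90.9% of the members and Vcan in 41.3%, 50.5% and 63.6%. Members at the limit of exactly 1 Ly6c2 UMI numbered 12 of 63 in HFD_EXE, 105 of 465 in HFD_sed and 2 of 44 in S. Cells that failed on Ly6c2 alone numbered 6, 188 and 7. Those that failed on Gpnmb alone numbered 2, 67 and 0, and on Cd209a alone 3, 35 and 2. Those that failed on Cd3e alone numbered 0, 32 and 1, and on Cd79a alone 4, 28 and 1. Most cells left out by each of these limits were thus of HFD_sed, which also had the most members. Cells that failed on Clec4f alone, a Kupffer cell gene, numbered 4, 16 and 23, so this limit left out more of the candidate cells in S than elsewhere. Clec4f was nonetheless detected in 63.6% of the members of S, against 25.4% in HFD_EXE and 15.5% in HFD_sed.

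Among genes of classical monocytes that the rule did not use, some were abundant and others sparse. Plac8, a gene of classical monocytes, was at 3474 CPM in HFD_EXE, 3606 CPM in HFD_sed and 2951 CPM in S, and was found in at least 95.2% of the members of each library. Fibronectin (Fn1), S100a4 and the myeloid regulator Cebpb were also abundant. Of the sparse ones, Ctsg was found in 1, 6 and 1 members and Prtn3 in 3, 34 and 8. Ly6a was found in 12.9% of the members of HFD_sed and 22.7% of S, below the 33.6% and 44.7% of B cells. Of the nonclassical markers, Ace was found in 22.2%, 23.2% and 27.3% of the members, and 13, 94 and 5 members also passed a rule for Ace positive monocytes. Transcripts of other cells were present. The 6 measured T cell genes, one of them the rule's Cd3e, summed to 11.7 CPM in HFD_EXE, 60.8 CPM in HFD_sed and 22.6 CPM in S. The 3 measured B cell genes summed to 319.1, 250.9 and 185.0 CPM, the 17 hepatocyte genes to 897.3, 1718 and 1387.4 CPM and the 4 erythroid genes to 121.5, 575.7 and 24.8 CPM. The 10 sinusoidal endothelial genes stood at a sum of 2204.5 CPM in HFD_EXE, 762.4 CPM in HFD_sed and 1432.6 CPM in S.

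Classical monocytes made up 0.602% of the kept cells of HFD_EXE (exact 95% binomial interval 0.463% to 0.769%), 4.20% of HFD_sed (3.84% to 4.59%) and 0.415% of S (0.301% to 0.556%). The share of HFD_sed was 10.1-fold that of S, while the share of HFD_EXE was 6.98-fold below that of HFD_sed and 1.45-fold that of S. With each cell thinned to 2000 UMIs before the rule was applied, the shares were 0.338% in HFD_EXE and 2.66% in HFD_sed, and HFD_sed stood at 6.53 and HFD_EXE at 0.830 times the share of S. The size of the gaps depended on which cells were counted in the denominator. Among cells with a UMI of Ptprc, the pan-leukocyte gene encoding CD45, the members were 1.56% of HFD_EXE, 5.67% of HFD_sed and 0.732% of S. There HFD_sed stood 7.75-fold above S and HFD_EXE 3.64-fold below HFD_sed. Among cells with at least 2 Lyz2 UMIs the shares were 3.42%, 10.8% and 1.33%, so that HFD_EXE was 3.15-fold below HFD_sed and 2.58-fold above S. The intervals cover counting error only. With no limit on Clec4f the share of S became 0.631%, the share of HFD_sed was then 6.89-fold that of S, and the share of HFD_EXE was 0.640%.

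**Figure D1:**
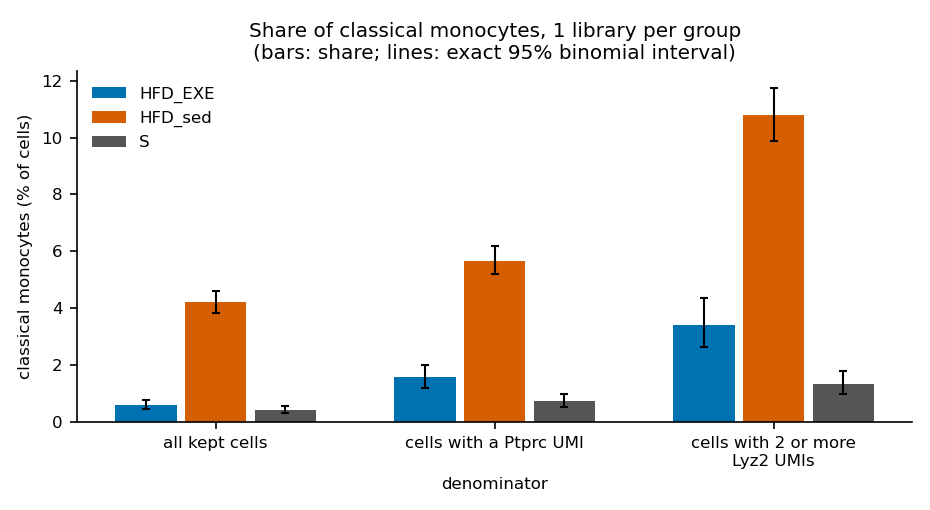
Share of classical monocytes (y axis, percent of cells) in HFD_EXE, HFD_sed and S by denominator (x axis: all kept cells, cells with a Ptprc UMI, cells with 2 or more Lyz2 UMIs). Bars are shares and lines exact 95% binomial intervals; HFD_sed has the tallest bar for each denominator, from 4.20% to 10.8%.

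The promoters of 4 genes that the results below turn on are shown, chosen because they hold matches among the 14 windows of 12 genes that were read, 250 bases before to 50 after the start, from RefSeq for build GRCm38.p6, which is not the build of the counts. Capitals mark matches on either strand to 3 motifs: the core of the interferon-stimulated response element, an NF-kB element, and the core of the hypoxia response element, acgtg. Of 32851 promoters of this length, 3.44% hold the first, 1.47% the second and 19.6% the third. A further motif, the gamma-activated site (GAS), is held by 8.3% of them and had 0 matches in each of the 14 windows. Cxcl10 and Gbp2 hold 1 match each to the first and second, Cxcl2 holds 2 overlapping matches to the second, 1 per strand, and Ankrd37 holds 2 to the third. Of the windows not shown, Isg15 held 3 overlapping matches to the first and Nfkbia 1 to the second. Ptgs2 and Fkbp5 held 2 overlapping matches each to the third, 1 per strand. The windows at the 2 starts of Tnfaip3 held 3 to the third, 2 of them overlapping in the same way, and 1, and those of Hilpda 0 and 1. The windows of Cxcl9 and Tnf held no match to any of these.
Cxcl10, interferon-induced chemokine, chr5:92348840-92349139, minus strand: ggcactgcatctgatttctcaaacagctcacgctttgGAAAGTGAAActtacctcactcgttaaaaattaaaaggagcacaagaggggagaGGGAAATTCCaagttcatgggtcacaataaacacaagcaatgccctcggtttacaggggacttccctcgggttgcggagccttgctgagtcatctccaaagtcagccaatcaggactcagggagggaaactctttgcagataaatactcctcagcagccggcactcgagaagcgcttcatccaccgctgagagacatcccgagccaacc
Gbp2, interferon-induced GTPase, chr3:142620413-142620712, plus strand: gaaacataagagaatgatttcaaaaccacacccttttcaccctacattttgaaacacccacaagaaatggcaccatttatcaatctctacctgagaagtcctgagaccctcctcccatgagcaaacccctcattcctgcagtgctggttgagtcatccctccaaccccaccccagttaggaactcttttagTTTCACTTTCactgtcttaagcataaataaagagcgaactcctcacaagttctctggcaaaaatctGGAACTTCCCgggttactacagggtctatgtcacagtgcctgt
Cxcl2, neutrophil chemokine, chr5:90903649-90903948, plus strand: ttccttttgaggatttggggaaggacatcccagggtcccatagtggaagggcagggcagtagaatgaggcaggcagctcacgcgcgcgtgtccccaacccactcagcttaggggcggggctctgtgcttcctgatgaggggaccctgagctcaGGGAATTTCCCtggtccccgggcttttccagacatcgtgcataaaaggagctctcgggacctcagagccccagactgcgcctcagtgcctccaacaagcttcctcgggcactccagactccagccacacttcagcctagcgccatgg
Ankrd37, ankyrin repeat gene induced in hypoxia, chr8:45999801-46000100, minus strand: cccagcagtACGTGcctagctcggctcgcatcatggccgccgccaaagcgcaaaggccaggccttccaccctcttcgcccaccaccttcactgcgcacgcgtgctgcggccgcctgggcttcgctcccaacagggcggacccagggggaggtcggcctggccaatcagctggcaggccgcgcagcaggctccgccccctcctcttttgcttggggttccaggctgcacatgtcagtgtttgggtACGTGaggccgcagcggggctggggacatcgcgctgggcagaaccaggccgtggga

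Each comparison counted genes at least 2-fold apart whose exact 95% counting interval excluded no difference, among genes with at least 20 UMIs over both libraries. For HFD_sed over S this held for 430 higher genes, 4.4% of the 9764 measured, and for 374 lower genes, 3.83%. For HFD_EXE over HFD_sed it held for 450 higher genes, 4.54% of 9916, and for 283 lower genes, 2.85%. For HFD_EXE over S it held for 372 higher genes, 5.8% of 6414, and for 249 lower genes, 3.88%. "Higher" and "lower" are used in this sense for genes of a list. The median log2 ratio of all measured genes was 0.0016, -0.024 and 0.00045 in these comparisons. HFD_sed enters both of the first 2 comparisons, so they are not independent. The intervals take no account of UMIs that cluster in single cells, and the share held by the highest cell is given beside genes with few UMIs in a library.

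Several interferon-induced genes stood higher in the members of both HFD libraries than in those of S. Cxcl10, a chemokine for CXCR3-bearing T cells, was at 451 CPM in HFD_EXE, 703 CPM in HFD_sed and 18.0 CPM in S. Cxcl9, its neighbour in the same chemokine cluster, was at 593, 572 and 20.3 CPM. Both were low in S, where they came from 8 and 9 UMIs, and 1 cell held 44.4% of those of Cxcl9. For Cxcl10, 1 cell held 39.6% of the UMIs of HFD_EXE. For Cxcl10 the log2 ratio of HFD_sed over S was 5.28 (95% interval 4.30 to 6.50), and that of HFD_EXE over S was 4.64 (3.65 to 5.87). Gbp2 was at 246 CPM in HFD_EXE, 292 CPM in HFD_sed and 29.3 CPM in S, and the ubiquitin-like modifier Isg15 at 127, 142 and 31.6 CPM. Of 20 measured members of the interferon list, 7 were higher and 0 lower in HFD_sed than in S, with a median log2 ratio of 0.93. Against the list's median, Ifit1, Ifit2, Ifit3 and Usp18 had log2 ratios of -0.43, -0.13, -0.08 and -0.08. In HFD_EXE against HFD_sed, 0 of the 20 were higher and 0 lower, with a median of -0.05. Cells thinned to 3000 UMIs held Cxcl10 in 16.1% of members of HFD_EXE, 22.0% of HFD_sed and 2.27% of S. In B cells, which serve as a background, the thinned shares were 2.73%, 5.34% and 3.24%, at median depths of 3612, 2873.5 and 3671.5 UMIs before thinning, and the share in S lay below it. Unthinned, the shares of members were 22.2%, 33.1% and 13.6%.

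Il1b, Tnf and Ptgs2 stood highest in HFD_sed. Il1b, the precursor of interleukin 1 beta, stood at 527 CPM in HFD_EXE, 1513 CPM in HFD_sed and 523 CPM in S. Tnf stood at 54.2, 175 and 27.1 CPM, and Ptgs2, the inducible cyclooxygenase, at 22.0, 162 and 15.8 CPM. For these 3 genes the level in HFD_EXE was nearer to S than to HFD_sed. Of the 37 Tnf UMIs of HFD_EXE, 1 cell held 40.5%. Cxcl2 differed from them, at 581 CPM in HFD_EXE, 900.2 CPM in HFD_sed and 119.6 CPM in S, where 1 cell held 96.2% of its 53 UMIs. In HFD_EXE 1 cell held 40.3% of those of Cxcl2. The log2 ratio of HFD_EXE over HFD_sed was -1.52 for Il1b (-1.68 to -1.37), -1.69 for Tnf (-2.21 to -1.21) and -2.88 for Ptgs2 (-3.73 to -2.15). With each cell thinned to 2000 UMIs before the rule was applied, Tnf turned to 0.21 in this comparison, and Ptgs2 was at 0.95 in HFD_sed over S, no longer past 2-fold. Il1rn, the natural antagonist of the interleukin 1 receptor, was at 127, 275 and 60.9 CPM, and 1 cell held 40.2% of its UMIs in HFD_EXE and 44.4% in S. Of 16 measured cytokines and chemokines, 7 were higher and 0 lower in HFD_sed than in S, with a median of 1.53. In HFD_EXE against HFD_sed 5 were lower and 1 higher, with a median of -0.82. The 1 higher gene was the eotaxin gene Ccl24, at 116, 43.3 and 11.3 CPM, of which 1 cell held 48.1% in HFD_EXE and 42.1% in HFD_sed. The monocyte attractants Ccl2 and Ccl4 differed less between HFD_sed and S, with log2 ratios of -0.25 and 0.10.

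Regulators of the NF-kB pathway were also highest in HFD_sed. Tnfaip3, the deubiquitinase A20 that restrains NF-kB signalling, stood at 101 CPM in HFD_EXE, 273 CPM in HFD_sed and 47.4 CPM in S. The inhibitor gene Nfkbia stood at 610.4, 1012 and 316 CPM and Zfp36, which destabilises cytokine mRNAs, at 950.0, 2313 and 1022 CPM. Of 18 members, 9 were higher and 0 lower in HFD_sed than in S, with a median of 1.01, and 4 were lower and 0 higher in HFD_EXE than in HFD_sed, with a median of -0.73. Tnip3, an A20-binding protein gene outside the list, was at 92.2, 161 and 13.5 CPM. Socs3, the feedback inhibitor of cytokine receptors, was at 136, 437 and 329 CPM.

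**Figure D2:**
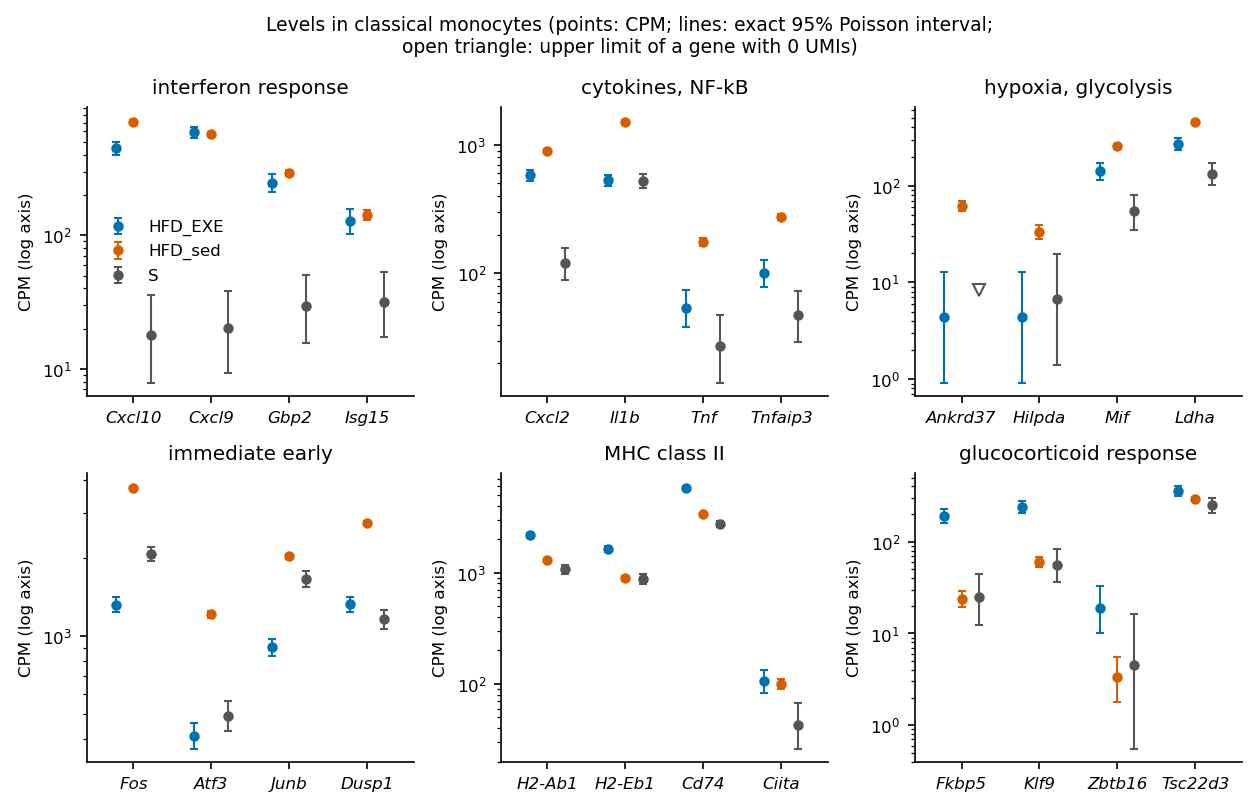
Levels (y axis, CPM, log scale) of 24 genes in classical monocytes of HFD_EXE, HFD_sed and S, in 6 groups. Points are CPM over all members of 1 library and lines exact 95% Poisson intervals, which cover counting error only; the open triangle is the upper limit of Ankrd37 in S, where it had 0 UMIs. Cxcl9 is close to equal in the HFD libraries, Il1b and Tnf are highest in HFD_sed, and Fkbp5 is highest in HFD_EXE.

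Most genes induced by low oxygen that are named here stood highest in HFD_sed. Ankrd37 was at 4.39 CPM in HFD_EXE, from 3 UMIs, and at 61.8 CPM in HFD_sed, from 261 UMIs, while 0 UMIs were found in S. With S put at 3 counts, its log2 ratio of HFD_sed over S was 3.19, and 0.47 with cells thinned to 2000 UMIs, no longer past 2-fold. The lower 95% bound without thinning, 2.88, was computed from the observed 0 UMIs and not from 3 counts. The log2 ratio of HFD_EXE over HFD_sed was -3.81, with an upper 95% bound of -2.25. Hilpda, a lipid droplet gene of the hypoxia response, was at 4.39, 33.1 and 6.77 CPM, and Mif, a cytokine gene of the same response, at 142, 257 and 54.1 CPM. Of 14 measured hypoxia genes, 8 were higher and 0 lower in HFD_sed than in S (median 1.47). Of 15 in HFD_EXE against HFD_sed, 8 were lower and 2 higher (median -1.18). The 2 higher ones were Ddit4, at 84.9, 36.5 and 20.3 CPM, and Adm, at 23.4, 2.84 and 0 CPM, of which 1 cell held 62.5% in HFD_EXE. Ldha and Tpi1, of glycolysis, stood highest in HFD_sed as well, with lactate dehydrogenase (Ldha) at 269, 455 and 133 CPM and triosephosphate isomerase (Tpi1) at 109.8, 278 and 83.5 CPM. Of 15 glycolysis genes, 8 were higher and 0 lower in HFD_sed than in S (median 1.05), and 3 were lower and 0 higher in HFD_EXE than in HFD_sed (median -0.53).

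Immediate early genes, which cells also induce while tissue is dissociated, stood highest in HFD_sed too, beside the cytokine, NF-kB and hypoxia genes. Fos stood at 1322 CPM in HFD_EXE, 3733 CPM in HFD_sed and 2076 CPM in S, and Atf3 at 413, 1213 and 494 CPM. Of 16 members, 6 were higher and 0 lower in HFD_sed than in S (median 0.84), and 7 were lower and 0 higher in HFD_EXE than in HFD_sed (median -0.94). The heat shock gene Hspa1a was at 22.0, 107 and 45.1 CPM, and 1 cell held 66.7% of its 15 UMIs of HFD_EXE. The part of dissociation in the cytokine and hypoxia values was not tested.

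MHC class II genes, which present peptides to CD4 T cells, stood highest in HFD_EXE. The invariant chain gene Cd74 was at 5801 CPM in HFD_EXE, 3330.4 CPM in HFD_sed and 2737 CPM in S, and H2-Ab1 at 2166, 1308 and 1067 CPM. The log2 ratio of HFD_EXE over HFD_sed was 0.80 for Cd74 (0.75 to 0.85) and 0.73 for H2-Ab1 (0.64 to 0.81). The 8 members had a median of 0.65 in this comparison, yet 0 of them passed 2-fold. Against S, 4 of 7 measured members were higher in HFD_EXE, with a median of 1.02. HFD_sed over S had a median of 0.28, and with no limit on Clec4f this turned to -0.38. The transactivator gene Ciita was at 105, 99.9 and 42.9 CPM.

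Fkbp5 and Klf9, known glucocorticoid-induced genes, stood higher in HFD_EXE than in both other libraries. Zbtb16, a further such gene, stood higher in HFD_EXE than in HFD_sed. Fkbp5, a chaperone of the glucocorticoid receptor and a standard target of it, was at 190.3 CPM in HFD_EXE, 23.9 CPM in HFD_sed and 24.8 CPM in S. It was found in 84.1%, 17.6% and 18.2% of the members, and in 41.9%, 5.88% and 6.82% after thinning to 3000 UMIs. Klf9, another receptor target, was at 239, 60.6 and 56.4 CPM, and Zbtb16 at 19.0, 3.31 and 4.51 CPM. Zbtb16 had fewer than 20 UMIs over HFD_EXE and S, so it was not measured in that comparison. Among 8 measured members 3 were higher and 0 lower in HFD_EXE than in HFD_sed, with a median of 0.38. Tsc22d3, the target known as GILZ, was at 356, 292 and 250.4 CPM, a log2 ratio of 0.29 between the HFD libraries. Fkbp5 was also higher in other cells of HFD_EXE: Ace positive monocytes had 232, 30.3 and 25 CPM in HFD_EXE, HFD_sed and S, and B cells 98.9, 28.6 and 19.6 CPM.

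**Figure D3:**
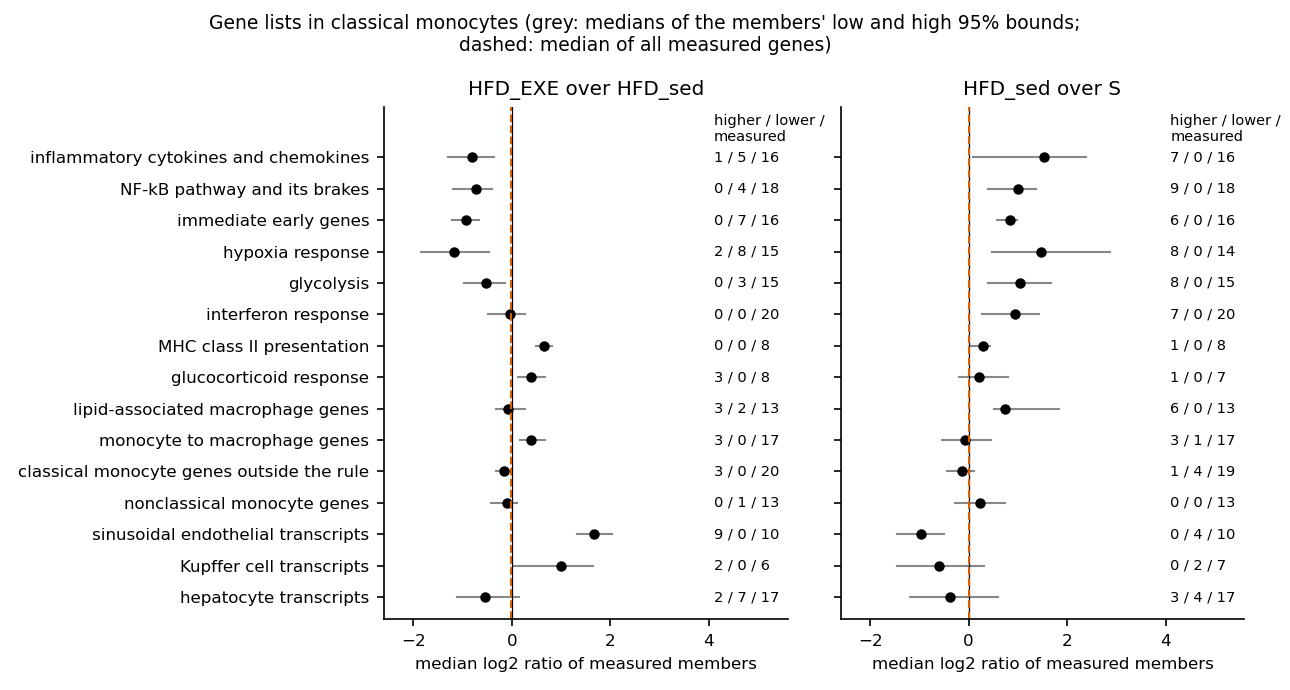
Median log2 ratio (x axis) of the measured members of 15 gene lists (y axis) in HFD_EXE over HFD_sed, left, and HFD_sed over S, right. Points are medians, grey lines run between the medians of the members' low and high 95% bounds, the dashed line is the median of all measured genes, and the numbers beside each point count higher, lower and measured members. The cytokine, hypoxia and glycolysis lists lie right of 0 for HFD_sed over S and left of 0 for HFD_EXE over HFD_sed.

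Genes of monocyte identity outside the rule were mixed. Of 19 measured classical monocyte genes, 1 was higher and 4 lower in HFD_sed than in S (median -0.13). In HFD_EXE against HFD_sed 3 of 20 were higher and 0 lower (median -0.17): Ly6a, at 76.1 against 28.6 CPM, and Ctsg and Prtn3, which 1 cell nearly all supplied in HFD_EXE, as given further on. Fn1 was at 738 CPM in HFD_EXE, 1350.2 CPM in HFD_sed and 2883 CPM in S, and Ifitm6 at 315, 369 and 767 CPM. With no limit on Clec4f their log2 ratios of HFD_sed over S were -0.84 and -0.79, no longer past 2-fold. Cebpb went the other way, at 1505, 2230.2 and 1040.0 CPM. Nonclassical genes had 0 of 13 higher and 0 lower in HFD_sed than in S, with a median of 0.22. Among 17 genes of the monocyte to macrophage transition, 3 were higher and 1 lower in HFD_sed than in S (median -0.06). The 3 were the tetraspanins Cd63 and Cd9 and the receptor kinase Axl, and Axl was at 169.8, 92.8 and 22.6 CPM. The call of Axl ended with cells thinned to 2000 UMIs, at 1.08, and with no limit on Clec4f, at 0.32. The lower one was apolipoprotein E (Apoe), at 2881, 2445 and 4923 CPM. Apoe was found in 97.2% of the members of HFD_sed and 100% of S, and also in 77.9% and 95.2% of B cells. Of 13 lipid-associated macrophage genes, 6 were higher and 0 lower in HFD_sed than in S, with a median of 0.74. They include lipoprotein lipase (Lpl), at 514, 348 and 106 CPM, whose log2 ratio was 0.82 after this thinning and 0.78 with no limit on Clec4f, and Fabp4, a carrier of fatty acids, at 54.2, 175 and 22.6 CPM. The ratios to S of some of these genes rest on few UMIs: Cd63 had 1 UMI in S, Cd9 had 8, of which 1 cell held 75%, and Fabp4 had 10, of which 1 cell held 40%. In HFD_sed 1 cell held 21.1% of the UMIs of Fabp4. Unthinned, Fabp4 was found in 39.1% of the members of HFD_sed and 6.82% of S. In B cells, the background, it was found in 26.7% and 10.1%. Osteopontin (Spp1) was at 152, 63.7 and 0 CPM, but 1 cell held 92.3% of its UMIs in HFD_EXE.

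Other macrophage genes differed between the HFD libraries. The transcription factor gene Maf was at 493 CPM in HFD_EXE, 204 CPM in HFD_sed and 284 CPM in S, where 1 cell held 46.8%. The tetraspanin Cd81 was at 104, 35.3 and 65.4 CPM and Mertk, a receptor for uptake of dying cells, at 32.2, 8.76 and 18.0 CPM. These 3 of 17 transition genes were higher in HFD_EXE than in HFD_sed and 0 were lower, with a median of 0.38. The scavenger receptor genes Cd36, at 196, 93.5 and 74.4 CPM, Mrc1, at 209, 58.0 and 144 CPM, and Stab1, at 133, 48.1 and 76.7 CPM, were higher in HFD_EXE than in HFD_sed as well. In S 1 cell held 68.8% of the UMIs of Mrc1, 50% of those of Stab1 and 48.3% of those of Cd81. Without members holding over 1% hepatocyte or sinusoidal UMIs, 1 of the 17 transition genes was higher in HFD_EXE than in HFD_sed (median 0.34), and the log2 ratios of Maf, Mertk and Cd36 were 0.88, 0.90 and 0.85, no longer past 2-fold. With cells thinned to 2000 UMIs the median of the transition genes was -0.013. Sinusoidal endothelium also makes Mrc1, Stab1 and Maf, and its summed transcripts stood in the same order of libraries. Kupffer cell transcripts, of which the rule limits Clec4f, were lowest in HFD_sed as well. The 6 measured in HFD_EXE and HFD_sed summed to 254.7 CPM in HFD_EXE and 129.9 CPM in HFD_sed, with 2 higher and 0 lower (median 0.99, turning to -0.17 with no limit on Clec4f). The 7 measured in HFD_sed and S summed to 133.0 CPM in HFD_sed and 264.0 CPM in S, with 0 higher and 2 lower (median -0.60). The part of Kupffer cell transcripts in these values was not tested.

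Receptors that guide migration were mixed. Of 18, 5 were higher and 1 lower in HFD_sed than in S, with a median of 0.13. Cxcr4, the CXCL12 receptor that holds cells in marrow and tissue, was at 221 CPM in HFD_EXE, 354 CPM in HFD_sed and 124 CPM in S. C5ar1, the receptor of complement C5a, was at 64.4, 97.8 and 33.8 CPM, with a log2 ratio of HFD_sed over S of 0.73 after thinning to 2000 UMIs. S1pr4 was lower, at 4.73 CPM in HFD_sed from 20 UMIs and 18.0 CPM in S from 8, and this call ended with no limit on Clec4f, at -1.29. In HFD_EXE against HFD_sed 1 of 18 was higher and 2 lower, with a median of -0.43. The higher one was S1pr1, which directs exit into blood, at 67.3 against 18.5 CPM. Cx3cr1, the fractalkine receptor of maturing monocytes, stood at 338, 444 and 372 CPM.

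Among genes of iron, redox and lipid handling, several stood higher in both HFD libraries than in S. The iron and lipid lists were mixed in HFD_sed over S. Of 7 iron genes 1 was higher and 1 lower (median 0.06). Of 13 fatty acid genes 1 was higher and 2 lower (median -0.10). Of 12 cholesterol efflux genes 2 were higher and 0 lower (median 0.26). The lower ones were Cd163, Dgat1 and Mgll, with log2 ratios of -2.25, -1.18 and -1.02, from 7, 10 and 14 UMIs in S. Ferritin heavy chain (Fth1) was at 6204, 6992 and 3014 CPM. The haem oxygenase gene Hmox1 was at 607 CPM in HFD_EXE, 358 CPM in HFD_sed and 63.2 CPM in S. The cystine transporter gene Slc7a11 was at 154, 118 and 29.3 CPM, although its log2 ratio of HFD_sed over S was -0.083 with cells thinned to 2000 UMIs. Slc7a11 and Hmox1 were among 3 of 15 oxidative burst and antioxidant genes higher in HFD_sed than in S. The liver X receptor gene Nr1h3, which controls cholesterol efflux, was at 105, 101 and 11.3 CPM, from 5 UMIs in S, of which 1 cell held 40%. Clec4e, the receptor Mincle for glycolipids and dead cells, was at 310.3, 553 and 119.6 CPM, where 1 cell of S held 62.3%.

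Of the 8 higher genes with the largest bounds in HFD_EXE over HFD_sed, 5 had nearly all their UMIs of HFD_EXE in 1 cell. Mpo, Elane, Ctsg and Prtn3, granule protease and peroxidase genes of early granulocyte and monocyte precursors, were at 242, 157, 74.7 and 162 CPM in HFD_EXE. There 1 cell of 19221 UMIs held at least 98.2% of the UMIs of each. Dcn, a matrix gene of stellate cells and fibroblasts, was at 121 CPM, with 98.8% in 1 cell. Bmp2, Gja4 and Tcim were at 259, 55.6 and 73.2 CPM in HFD_EXE against 27.2, 1.18 and 6.15 CPM in HFD_sed. Beside them stands the sinusoidal endothelial list, of which 9 of 10 members were higher in HFD_EXE than in HFD_sed (median 1.67), and B cells had 3 of 10 higher (median 0.89). Of all 10773 genes measured in B cells, 5.05% were higher in HFD_EXE than in HFD_sed. With 3, 3 and 1 members of HFD_EXE, HFD_sed and S left out in which hepatocyte or sinusoidal genes held over 1% of the UMIs, 5 genes of that list were higher and its median was 0.97. Their part in the values of Bmp2, Gja4 and Tcim was not tested. The lower genes Bhmt and Serpina1b, made by hepatocytes, were at 97.8 and 89.2 CPM in HFD_sed. There 1 cell of 60270 UMIs held 93.2% of the UMIs of Bhmt, and 1 cell held 91.0% of those of Serpina1b.

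Of the 8 lower genes named by size in HFD_sed over S, 6 had most of their UMIs of S in 1 cell. Bmp2 was at 27.2 CPM in HFD_sed against 180.5 CPM in S, where 1 cell of 26995 UMIs held 86.2%. Aqp1 (46.2 against 203 CPM), Adgrf5 (28.6 against 115 CPM), Cyyr1 (8.99 against 76.7 CPM), Cyp26b1 (5.68 against 81.2 CPM) and Plxnc1 (20.6 against 129 CPM) each had between 50.9% and 74.5% of their UMIs of S in 1 cell. The other two were spread over members. Cd33, an inhibitory sialic acid receptor gene, was at 43.9 CPM in HFD_EXE, 23.2 CPM in HFD_sed and 97.0 CPM in S, and its highest cell in S held 11.6% of its UMIs. Mir6236 was at 309 CPM in HFD_sed against 1191 CPM in S, where the highest cell held 10.4%. It was found in 83.2% of the members of HFD_sed and 100% of S, and B cells went the same way, at 80.4% and 98.9%. Car3, at 54.7 CPM in HFD_sed and 0 UMIs in S, had 87.4% of its UMIs in 1 cell. Erythroid transcripts summed to 575.7 CPM in HFD_sed and 24.8 CPM in S.

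Members differed from one another more in some programmes than in others, with each cell thinned to 3000 UMIs and 62, 459 and 44 cells left in HFD_EXE, HFD_sed and S. MHC class II UMIs had medians of 8, 4 and 2 per cell, but 75th percentiles of 70.25, 19 and 5.25. The 6, 46 and 4 highest cells, about the same part of each library's members, held 39.1%, 55.5% and 68.8% of these UMIs. Interferon list UMIs had medians of 6, 5 and 3 per cell, and as many highest cells held 44.3%, 49.98% and 30.5%. Cytokine list UMIs had medians of 4, 9 and 6 per cell, so that by this measure HFD_EXE lay below S. Across the cells of a library, cytokine and NF-kB sums had a Spearman rho of 0.30 over 62 cells of HFD_EXE, 0.55 over 459 cells of HFD_sed and 0.22 over 44 cells of S, given as description. Hypoxia and glycolysis sums had a rho of -0.01, 0.53 and 0.31 over the same cells. MHC class II sums had a rho of -0.43 with Chil3 UMIs in HFD_EXE, -0.37 in HFD_sed and -0.33 in S. Chil3 is a gene of the rule, which shapes its values among members. In the same order, MHC class II sums had a rho of -0.25, -0.19 and 0.005 with the rule's Ly6c2 and of 0.25, 0.05 and -0.04 with its Ccr2.

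**Figure D4:**
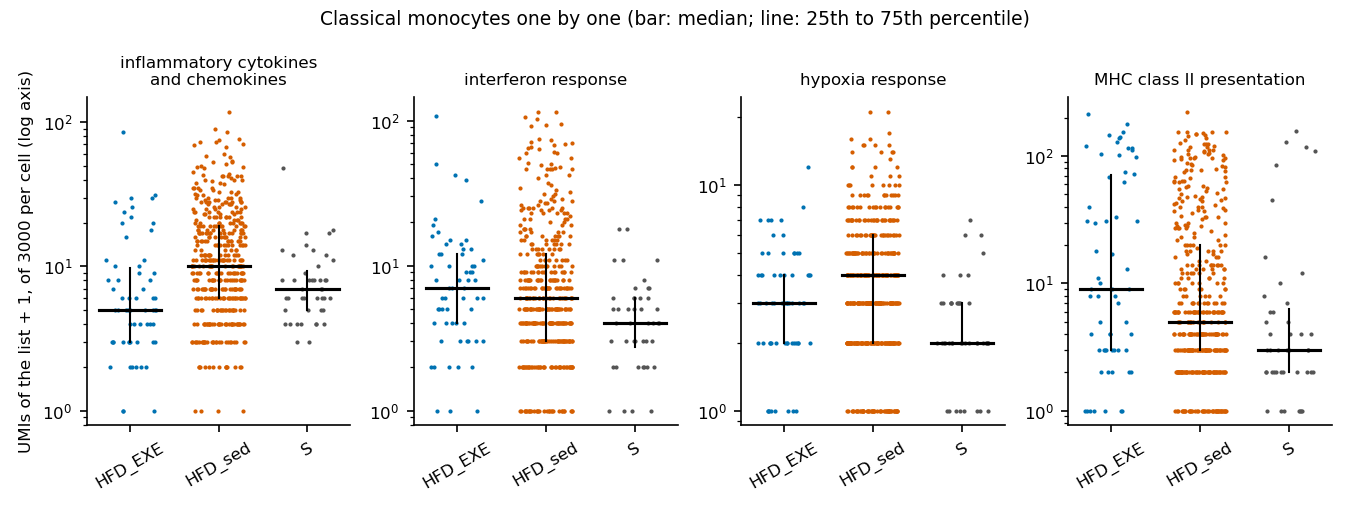
UMIs of 4 gene lists plus 1 (y axis, log scale) in each classical monocyte thinned to 3000 UMIs, for HFD_EXE, HFD_sed and S (x axis). Points are cells, bars medians and lines the 25th to 75th percentile; MHC class II sums spread over the widest range, with a median of 8 in HFD_EXE and 2 in S.

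Ace positive monocytes, the nearest other monocytes, were set beside the members, with members left out of them: 53 cells in HFD_EXE, 271 in HFD_sed and 74 in S. These are 2 gates, so their contrast is description. Of 5222 genes with at least 20 UMIs in each library, outside the genes of the gates, 42 were at least 2-fold higher in classical cells in all 3 libraries and 80 lower. The leading lower one was Cd300e, at 1.46 CPM in classical against 207 CPM in Ace positive monocytes of HFD_EXE, 1.42 against 106 CPM in HFD_sed and 6.77 against 452 CPM in S. Of all 8499 genes measured in Ace positive monocytes, 4.95% were higher and 7.2% lower in HFD_sed than in S (median -0.05). The cytokine list had 9 of 14 members higher in HFD_sed than in S in Ace positive monocytes (median 1.53), and the interferon list 8 of 20 (median 0.73). MHC class II had 7 of 8 higher (median 2.86), against 1 of 8 in classical monocytes, and these differences between cell types were not tested. In B cells of the same libraries the interferon list had 2 of 19 higher (median 0.14) and glycolysis 0 of 15 (median 0.02). Of all 10481 genes measured in B cells, 2.77% were higher and 4.96% lower in HFD_sed than in S (median -0.014). The cytokine list had 8 of 11 higher in B cells (median 1.55) at low levels, Il1b being at 25.5 CPM in HFD_EXE, 55.3 CPM in HFD_sed and 22.2 CPM in S. The part of free RNA in the cytokine values of the members was not tested.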

How the data were processed

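Single-cell libraries of mouse liver non-parenchymal cells were read from deposited matrices of raw UMI counts per gene and barcode, whole numbers with no normalization. Per the labels, cells came from enzymatic dissociation with red cell lysis and dead cell removal, and 5000 to 6000 cells were captured per sample, fewer than the 11280 to 11752 barcodes in the matrices. The submitters' processing notes name the tool Cell Ranger 6.1.2 and, as genome build, GRCm39. Rows with the same symbol were added together. Barcodes with fewer than 500 UMIs, fewer than 300 detected genes or 15% or more mitochondrial UMIs were left out. Doublets were not removed; they were scored per library with Scrublet in Scanpy 1.11.5, and 1, 17 and 0 members of HFD_EXE, HFD_sed and S lay in the top 5% of scores.

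Members' counts were summed per library and divided by their total (CPM), with exact Poisson intervals. Log2 ratios carry exact conditional binomial intervals (SciPy 1.17.1), and shares Clopper-Pearson intervals, all at 95%. A gene with 0 counts was put at 3 counts for its ratio, while its interval used the observed 0. Intervals cover counting error only; with 1 library per group there was no test and no p-value. The comparison was also run on simulated Poisson sums with known changes. These hold no clustering of UMIs in single cells and no variation between animals, so they cannot show how either affects the calls.

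The members and gene lists were chosen with earlier results of these data known. Named genes were the 8 per direction with the largest 95% bound nearest to no change, at 50 CPM or more in the higher library, leaving out the rule's genes, listed genes of other cells, mitochondrial, ribosomal, haemoglobin, antigen receptor and sex-linked genes and unnamed models. Up to 4 genes per list, genes against its median and others that a sentence needs were named too. Fewer cells and less RNA per cell cannot be told apart in a sum. Some genes that the rule would name are not reported here.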

Additional observations from a re-analysis of the deposited data

How the results depend on the processing

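Shares of kept cells, numbers of called genes, list medians and log2 ratios of named genes were recomputed under the alternatives that bear on them. The shares by other denominators, the sums per cell, the correlations, the thinned detection and the values of other cell types were not. Over all settings, 20 shares, 24 folds of a share, 1107 list medians and 2177 log2 ratios of named genes stayed within the interval of the reported value. Outside it lay 7 shares, 3 folds, 55 medians and 221 log2 ratios, and 13 further medians and 24 log2 ratios turned sign. Part of the values that stayed could not move. The log2 ratio of a gene is the same at 1.5-fold and with at least 50 or 1 UMIs, and so is a list median at 1.5-fold. Thinning to 2000 UMIs ended the call of 25 of 79 named genes in HFD_sed over S and of 23 of 71 in HFD_EXE over HFD_sed. Leaving out members with over 1% hepatocyte or sinusoidal UMIs ended 12 of 79 and 12 of 71, having no limit on Clec4f 12 and 5, and having Ccr2 and Ly6c2 at 2 UMIs or more 10 and 14. The settings on Clec4f, on Ace, on the highest cell, on members with over 1% hepatocyte or sinusoidal UMIs and the last free RNA setting were chosen after seeing the data. The cause of each move was not tested, except that fewer cells or genes enter under some settings by construction.

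With no limit on Clec4f, the share of S was 0.631%, the fold of HFD_sed over S 6.89, and 655 genes were lower in HFD_sed than in S. The MHC class II median was then -0.38 for HFD_sed over S and 0.97 for HFD_EXE over HFD_sed, and the Kupffer cell median for HFD_EXE over HFD_sed was -0.17. With Ccr2 and Ly6c2 at 2 UMIs or more, the shares were 0.430% in HFD_EXE and 3.06% in HFD_sed, and the MHC class II medians 0.98 for HFD_EXE over HFD_sed and -0.086 for HFD_sed over S. In HFD_sed over S the granule gene median was then -0.28 and Wfdc21 -0.80, and in HFD_EXE over HFD_sed Serpina1b was 0.73, Spp1 -2.55 and Procr -0.54. The share of HFD_sed was 4.82% with no requirement on Chil3, F13a1 and Vcan and 3.35% without members passing the Ace rule. With no requirement on Chil3, F13a1 and Vcan, Hspa1a was 0.99 and Apoe -0.80 in HFD_sed over S and Ccl24 0.95 in HFD_EXE over HFD_sed, no longer past 2-fold.

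With each cell thinned to 2000 UMIs, the shares were 0.338% in HFD_EXE and 2.66% in HFD_sed, with folds of 6.53 for HFD_sed over S and 0.830 for HFD_EXE over S. Counts of higher and lower genes were 127 and 93 for HFD_sed over S, 96 and 62 for HFD_EXE over HFD_sed, and 48 and 27 for HFD_EXE over S. In HFD_sed over S the granule gene median was -0.20, Slc7a11 -0.083 and Mrc1 0.62. In HFD_EXE over HFD_sed the medians were -0.013 for monocyte to macrophage genes, -0.28 for cytokines and 0.57 for interferon genes, and Tnf was 0.21, Nfkbie 0.17, Aim2 0.44 and Bhlhe40 0.12. Calls that ended there include Atf3 at -0.89, Ddit4 at 0.75, Ankrd37 at -1.68 and Tpi1 at -1.08, and in HFD_sed over S Nr1h3 at 1.39.

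At 1.5-fold, 691 genes were higher and 706 lower in HFD_sed than in S, 585 lower in HFD_EXE than in HFD_sed, and 566 higher and 506 lower in HFD_EXE than in S. With at least 50 UMIs the counts were 229 lower in HFD_sed than in S, 259 higher in HFD_EXE than in HFD_sed, and 187 higher and 108 lower in HFD_EXE than in S. With at least 1 UMI, 750 were higher in HFD_EXE than in HFD_sed.

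Without the highest cell of each gene, 207 genes were lower in HFD_sed than in S. There the medians were -0.32 for granule genes, 0.45 for MHC class II and 0.44 for sinusoidal genes, with Wfdc21 at -0.57, Mgll at 2.01 and Mrc1 at 0.12. In HFD_EXE over HFD_sed the cytokine median was -1.36 and the erythroid one 0.56, with Prtn3 at -1.60, Spp1 at -1.85 and Wfdc21 at 0.50. Without members with over 1% hepatocyte or sinusoidal UMIs, HFD_sed over S gave medians of -0.46 for granule genes and 0.44 for sinusoidal genes, with Bmp2 at 0.020, Wfdc21 at -0.83, Mgll at 2.01 and Mrc1 at 0.22. In HFD_EXE over HFD_sed Serpina1b was 0.79 and Wfdc21 0.49. Leaving out the top 5% of doublet scores gave Prtn3 -2.04 and Fabp4 -0.42 in that comparison, and the mean of each cell's CPM gave Wfdc21 0.18.

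The free RNA share estimated from hepatocyte transcripts was 108% in HFD_sed, so this subtraction could give no value for comparisons with it. Estimated without the members rich in hepatocyte or sinusoidal UMIs, it was 20.6%, 32.3% and 27.5% in HFD_EXE, HFD_sed and S. Subtracting that gave medians of -0.40 for granule genes and 3.17 for sinusoidal genes in HFD_sed over S, 425 lower genes in HFD_EXE than in HFD_sed, and 1.30 for MHC class II in the same comparison. No paired analysis was possible because each group was 1 library.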
